A study of Bos grunniens and Bos grunniens x Bos taurus with 2 samples.

Results

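The collagen genes were taken as every feature whose symbol has the form COL, a number, A and a number, and 38 of the 26961 features of the yak annotation met this rule. They comprise 9 chains of the fibrillar collagens, 6 of the type IV networks of basement membranes, 6 of the beaded filament group, 9 fibril-associated collagens (FACITs), 3 of the short chain networks, 1 multiplexin and 4 transmembrane collagens. *COL1A1*, *COL6A3*, *COL7A1*, *COL18A1*, *COL20A1* and *COL27A1* carry no symbol in the files and were not analysed here. Testes of 1 yak and 1 cattle-yak, the hybrid of cattle and yak, were collected after sexual maturity, and no treatment is named for either animal. The frozen tissue was thawed and taken apart with collagenase IV, hyaluronidase and trypsin, and the cells of each animal were sequenced as 1 droplet library. Each group therefore holds 1 library, so that no difference below could be tested, and every interval is a 95% interval of counting error only. The sample labels also carry the entry germ cell, whereas 1368 of the 9231 yak cells and 48 of the 6626 cattle-yak cells in a named class had germ cell markers.

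Collagens are the triple-helical proteins of the extracellular matrix. The fibrillar types give tissue its tensile strength, type IV forms the sheet-like network of basement membranes, and FACITs and beaded filaments link fibrils to cells and to each other. In the testis they lie in the interstitial space, in the walls of vessels and in the peritubular wall of the seminiferous tubule, whose basement membrane carries Sertoli cells and spermatogonia.

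Collagen transcripts made up 125754 of the 60816600 UMIs (unique molecular identifiers, each standing for 1 captured transcript) of the yak library and 119288 of the 43774841 UMIs of the cattle-yak library. This corresponds to 2068 and 2725 CPM, the UMIs of a gene or group scaled to a common total of all UMIs. All 38 genes had a UMI in both libraries, and 28 of them in yak and 27 in cattle-yak reached 50 UMIs. Cells were clustered without any collagen gene, and clusters were named from marker lists into 11 classes. The class names end in -like where they come from markers alone. A class that shared markers of stromal, peritubular and muscle cells, with both *PDGFRA* and *ACTA2*, was called PDGFRA+ACTA2+. By rule, a cluster named from the peritubular list that did not meet this was counted as stromal-like. No cluster carried enough Leydig cell markers for a name, but only 6 of the 12 Leydig names listed were found in the annotation. Leydig cells may therefore lie in a class of another name. A total of 24 cell barcodes occurred in both libraries.

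Of the named classes, stromal-like cells had the highest collagen level in both libraries. Summed over all members, it had 6291 CPM (6207 to 6377) in 809 yak cells and 6869 CPM (6810 to 6929) in 2870 cattle-yak cells. The PDGFRA+ACTA2+ class followed with 3828 CPM in 503 yak cells and 4635 CPM in 319 cattle-yak cells. Pericyte-like cells had 3429 CPM in 229 cells and 3552 CPM in 109 cells, endothelial-like cells 3435 CPM in 952 cells and 2106 CPM in 730 cells, and muscle-like cells 1374 CPM in 652 cells and 2178 CPM in 848 cells. Lymphatic endothelial-like cells had 829 CPM in 707 yak cells and 1292 CPM in 307 cattle-yak cells.

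The other classes ranged from the background level to that of lymphatic endothelial-like cells. Epithelial-like cells, found in yak only, had 874 CPM (759.6 to 999.7) in 67 cells. Germ-like cells had 580 CPM (554 to 607) in 1368 yak cells and 388 CPM (332 to 451) in 48 cattle-yak cells. The yak germ-like clusters ran from 102 CPM in cluster 14 to 1269 CPM in cluster 2, where *COL4A1* led with 351 CPM. Cluster 14 is given with all of its 94 cells, since only 20 lay within the upper limits. Its median depth was 33422.5 UMIs and that of cluster 2 was 979 UMIs. Whether depth or free RNA accounts for this range was not tested. Macrophage-like cells had 211 CPM in yak and 337 CPM in cattle-yak. The Sertoli-like class, named from *SOX9*, *INHA* and *GATM*, held 35 yak cells with 13 collagen UMIs (189 CPM, 101 to 324) and 104 cattle-yak cells with 356 (1266 CPM, 1138 to 1405). Of the latter, 114 were of *COL1A2* (405 CPM, 335 to 487). These values are given side by side only, since fewer than 50 cells were present in 1 of the libraries.

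T/NK-like cells, which are not known to make collagen, served as a reference level for collagen UMIs that may come from free RNA. They had 175 CPM (166 to 185) in 3694 yak cells and 581 CPM (555 to 609) in 1189 cattle-yak cells. In the cattle-yak library, cluster 23 with 56 cells held 61.5% of the collagen UMIs of this class. In that cluster 4 stromal markers were enriched beside 6 T/NK markers, and without it the level was 243 CPM (225 to 262). In the yak library, cluster 16 with 74 cells, led by the dividing-cell genes *PIMREG* and *RRM2*, held 37.2% of the class's collagen UMIs. It had 7 T/NK and 0 stromal markers enriched, and without it the level was 117 CPM (109.7 to 125). A collagen level at or below that of T/NK-like cells was not told apart from background. This level is a reference and not a limit, since the CPM that free RNA gives can differ with the depth of a class. The median depth of T/NK-like cells was 1946.5 UMIs in yak and 2332 in cattle-yak. That of endothelial-like cells was 4563 and 4441.5 UMIs. Whether a level came from free RNA was not tested.

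**Figure D1:**
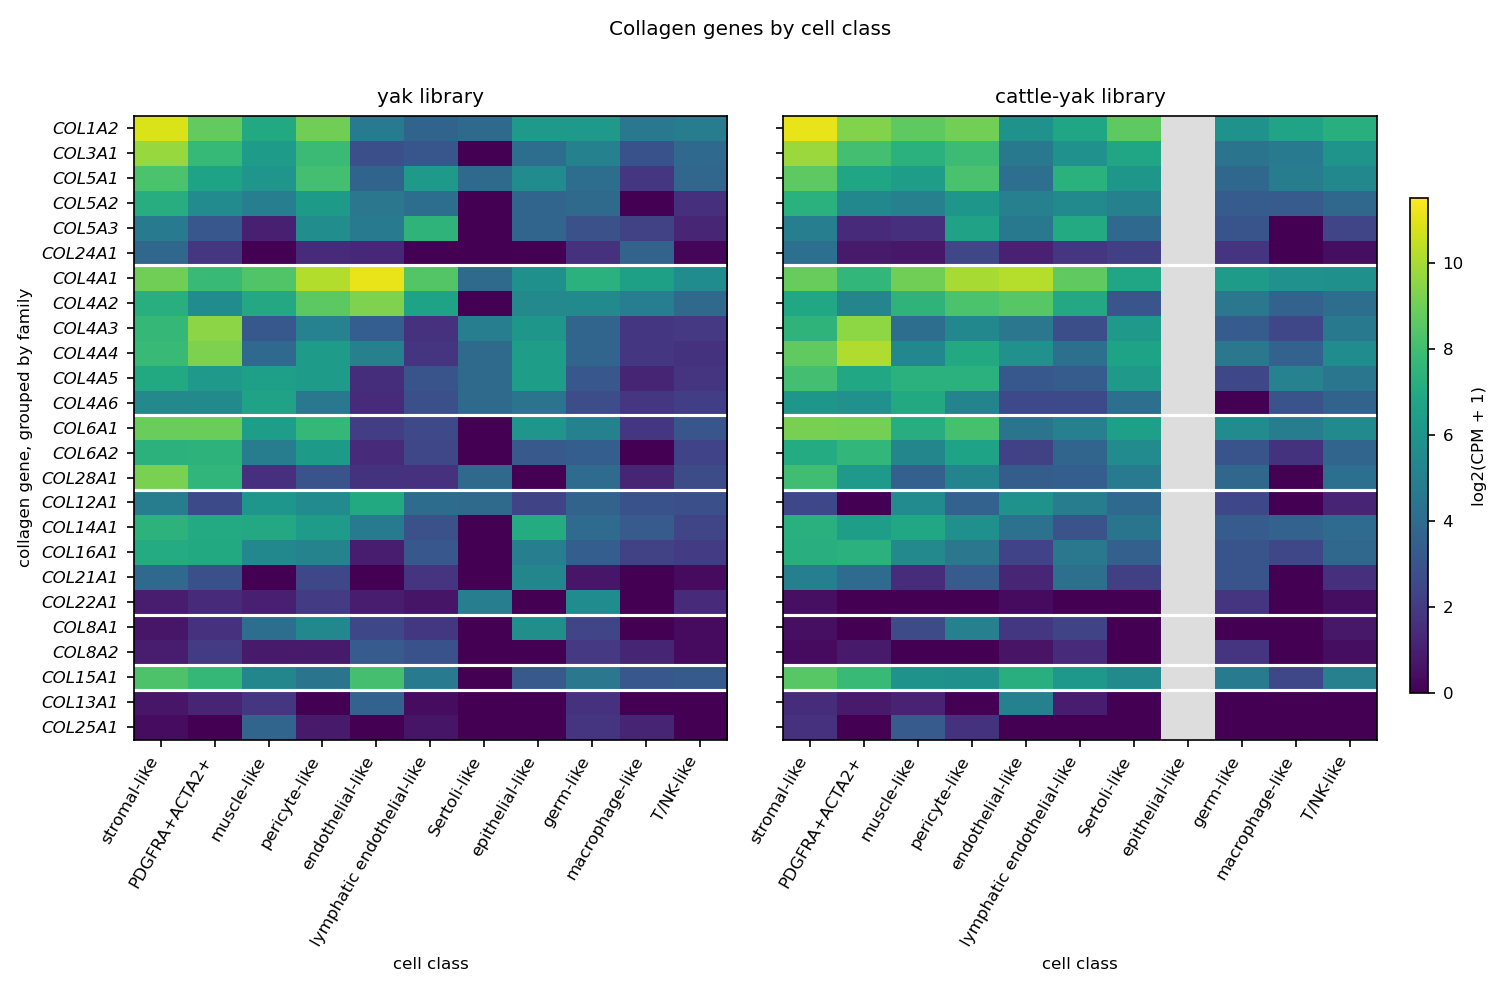
Levels of the collagen genes with at least 50 UMIs in the named classes of either library, as log2(CPM + 1), with genes grouped by family and the classes of the yak (left) and cattle-yak (right) library in columns; grey marks a class that was not found. *COL1A2*, *COL3A1*, *COL5A1* and *COL5A2* were brightest in the stromal-like column, *COL4A1* and *COL4A2* in the endothelial-like and pericyte-like columns, and *COL4A3* and *COL4A4* in the PDGFRA+ACTA2+ column.

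Most collagen genes had their highest level in a mesenchymal class, that is stromal-like, PDGFRA+ACTA2+, muscle-like or pericyte-like. This held for 16 of the 25 members with at least 50 UMIs in the yak classes, beside 17.9% of all genes with as many UMIs, and for 18 of 23 in cattle-yak, beside 23.8% of all genes. An endothelial class led for 6 of 25 members in yak (12.2% of all genes) and for 5 of 23 in cattle-yak (14.9% of all genes). Germ-like cells led for 1 of 25 in yak, *COL22A1*, and for 0 of 23 in cattle-yak, although 31.8% and 32.4% of all genes were highest there. The remaining 2 yak members, *COL8A1* and *COL21A1*, were highest in an epithelial-like cluster of 67 cells, on 12 and 9 UMIs, and no such cluster was found in cattle-yak.

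The make-up of the collagen pool differed between classes. Shares are of the UMIs of the 38 genes found, and thus lack *COL1A1*, *COL6A3* and *COL18A1* among others. In stromal-like cells fibrillar chains took 50.4% of the collagen UMIs in yak and 54.1% in cattle-yak, and type IV chains 19.6% and 21.7%. In endothelial-like cells type IV chains took 83.8% and 78.4%. The PDGFRA+ACTA2+ class lay between them, with 44.6% and 49.2% from type IV and 20.7% and 22.8% from fibrillar chains. Muscle-like cells had 48.4% and 47.4% from type IV. In both libraries the fibrillar share was thus higher in stromal-like than in PDGFRA+ACTA2+ cells.

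Of the fibrillar collagens, *COL1A2* encodes the alpha 2 chain of type I, the main collagen of connective tissue. Its level in stromal-like cells was 1827 CPM (1782 to 1874) in yak and 2245 CPM (2212 to 2279) in cattle-yak. The next classes were pericyte-like cells at 507 CPM in yak and PDGFRA+ACTA2+ cells at 635 CPM in cattle-yak, so the intervals of the leading class did not meet those of the next. After every cell had been thinned to 1000 UMIs, a *COL1A2* UMI was found in 68.0% (64.6 to 71.3) of yak and 76.5% (74.9 to 78.1) of cattle-yak stromal-like cells. The shares were 1.48% and 8.04% in T/NK-like cells, and without thinning 89.7% and 92.0% of stromal-like cells had a UMI. The median depths, with shallower cells included, were 3899 and 2510.5 UMIs for stromal-like cells and 1946.5 and 2332 UMIs for T/NK-like cells.

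*COL3A1*, the type III chain of reticular fibres, had 855 CPM (824 to 887) in yak and 863 CPM (843 to 885) in cattle-yak stromal-like cells. The type V chains, which start fibrils and set their diameter, followed the same class: *COL5A1* had 306 and 397 CPM and *COL5A2* 140.4 and 164 CPM. *COL5A1* was nearly as high in pericyte-like cells, at 269 CPM (241 to 299) in yak and 292 CPM (244 to 347) in cattle-yak. *COL24A1*, a rare fibrillar chain, had 13.7 CPM (10.0 to 18.3) and 17.2 CPM (14.3 to 20.4) in stromal-like cells. In yak its interval met that of macrophage-like cells, at 11.6 CPM on 9 UMIs.

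*COL5A3*, the third type V chain, stood apart from the other members of its type. It was highest in lymphatic endothelial-like cells, at 176 CPM (162 to 191) in yak and 129 CPM (110 to 151) in cattle-yak, and next in pericyte-like cells, at 49.3 CPM (37.9 to 63.1) and 98.2 CPM (71.3 to 132). The intervals of these classes met in cattle-yak but not in yak. Stromal-like cells had 25.3 and 29.1 CPM of *COL5A3*, and T/NK-like cells 1.36 and 4.28 CPM.

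The 6 type IV chains assemble into 3 kinds of network: alpha 1 with alpha 2 in nearly every basement membrane, alpha 3 with alpha 4 and alpha 5, known from the glomerulus, and alpha 5 with alpha 6, known from smooth muscle. *COL4A1* was highest in endothelial-like cells, at 2205 CPM (2166 to 2245) in yak and 1196 CPM (1161 to 1232) in cattle-yak. Pericyte-like cells came next with 1171 CPM (1112 to 1232) and 1006 CPM (915 to 1103). *COL4A2* followed the same order, with 628 and 364 CPM in endothelial-like and 391 and 301 CPM in pericyte-like cells. After thinning, 68.3% of yak and 56.0% of cattle-yak endothelial-like cells had a *COL4A1* UMI, beside 2.68% and 3.76% of T/NK-like cells.

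*COL4A3* and *COL4A4* were highest in the PDGFRA+ACTA2+ class. *COL4A3* had 733 CPM (699 to 769) there in yak and 749 CPM (702 to 799) in cattle-yak, against 199.8 and 178 CPM in stromal-like cells and 7.99 and 16.9 CPM in muscle-like cells. *COL4A4* had 591 CPM (560.3 to 623) and 1133 CPM (1074 to 1194) in that class, and 211 and 409 CPM in stromal-like cells. In contrast to *COL4A3*, *COL4A4* differed between the libraries in both classes by nearly the same log2 ratio, 0.94 (0.83 to 1.05) and 0.95 (0.84 to 1.08), just under 2-fold. In stromal-like cells both genes varied among the cattle-yak clusters, as given below. A *COL4A3* UMI was found after thinning in 45.2% and 49.2% of PDGFRA+ACTA2+ cells and in 14.2% and 13.1% of stromal-like cells.

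*COL4A5* and *COL4A6* did not share a leading class. *COL4A5* peaked in stromal-like cells, with 127 CPM (116 to 140.0) in yak and 267 CPM (256 to 279) in cattle-yak. *COL4A6* was highest in muscle-like cells, at 99.2 CPM (89.5 to 109.6) and 128 CPM (117 to 138), and had 41.1 and 66.8 CPM in stromal-like cells. The *COL4A5* level of muscle-like cells was 87.8 CPM in yak and 162 CPM in cattle-yak.

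**Figure D2:**
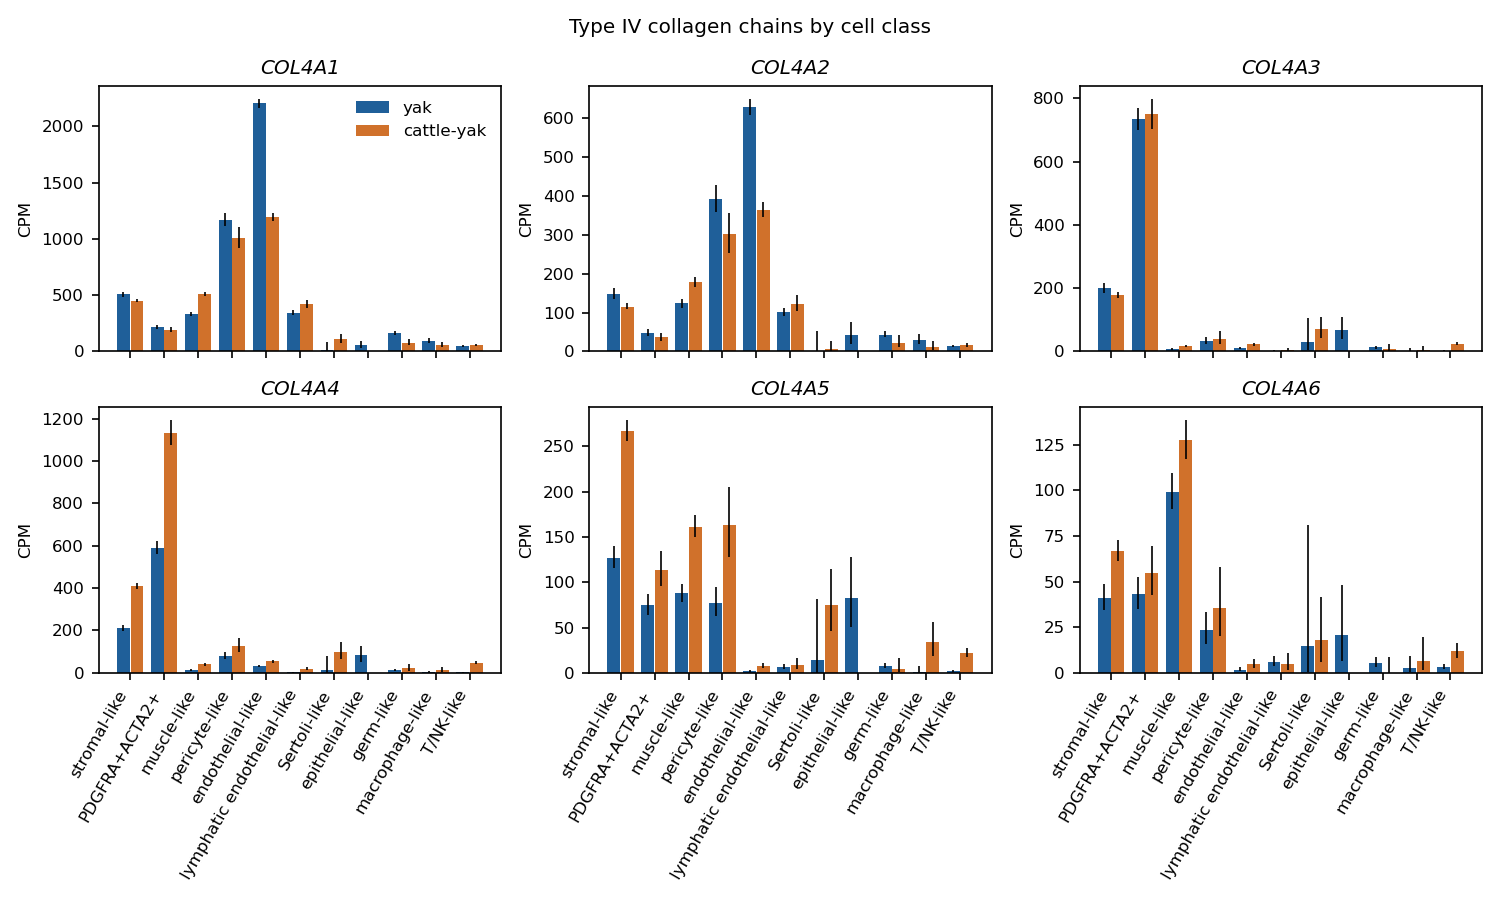
CPM of the 6 type IV chains in each class, 1 panel per gene, with bars for the yak (blue) and cattle-yak (orange) library and lines for the 95% counting interval. *COL4A1* and *COL4A2* peaked in endothelial-like cells, *COL4A3* and *COL4A4* in the PDGFRA+ACTA2+ class, *COL4A5* in stromal-like and *COL4A6* in muscle-like cells, in both libraries.

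Among the beaded filament chains, *COL6A1* and *COL6A2*, which join another chain in type VI microfibrils around cells, were shared by 2 classes. *COL6A1* had 474 CPM (451 to 498) in yak stromal-like and 487 CPM (459 to 516) in yak PDGFRA+ACTA2+ cells, and 565 CPM (548 to 582) and 544 CPM (504 to 587) in cattle-yak. The order of these 2 classes differed between the libraries, and the intervals met in both. *COL6A2* had 164 and 171 CPM in yak, where the intervals met, and 135 and 197 CPM in cattle-yak, where they did not. *COL28A1*, a relative of type VI known from peripheral nerve, was found mainly in stromal-like cells, at 575 CPM (549 to 601) in yak and 250.0 CPM (239 to 262) in cattle-yak, and in PDGFRA+ACTA2+ cells, at 192 and 71.8 CPM. In muscle-like cells of cattle-yak it had 10.7 CPM.

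The FACITs had several leading classes. *COL14A1*, which binds the surface of type I fibrils, had 172 CPM (158 to 187) and 157 CPM (148 to 166) in stromal-like cells, and was within 1.5-fold of this in muscle-like cells at 123 and 114 CPM. *COL16A1*, found near fibrils and basement membranes, had 134 and 148 CPM in stromal-like and 128 and 163 CPM in PDGFRA+ACTA2+ cells, with intervals that met in both libraries. *COL12A1*, another fibril-surface collagen, was instead highest in endothelial-like cells, at 127 CPM (117 to 136) and 59.5 CPM (51.9 to 67.8), and next in muscle-like cells, at 63.9 CPM (56.2 to 72.3) and 46.4 CPM (40.3 to 53.1). *COL21A1* had 14.0 CPM in yak and 30.1 CPM in cattle-yak stromal-like cells.

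*COL22A1*, a FACIT known from tissue junctions such as the muscle tendon border, was the only member highest in germ-like cells. In yak it had 47.5 CPM (40.3 to 55.6) in germ-like cells on 154 UMIs, and 1.60 CPM (0.854 to 2.74) in T/NK-like cells. The next class by level, Sertoli-like, rested on 2 UMIs (29.1 CPM). After thinning, 4.20% (2.93 to 5.82) of the germ-like cells and 0.11% of the T/NK-like cells deep enough to be thinned had a UMI. Many germ-like cells were too shallow: 182 of 406 cells were kept in cluster 1 and 282 of 579 in cluster 2. With shallower cells included, the median depths of the 2 classes were 1158 and 1946.5 UMIs. The germ-like level was not even: in yak cluster 20, whose leading genes included *HMGB4*, *TEX29* and *RNF151*, genes of haploid germ cells, *COL22A1* had 215 CPM (178 to 259) on 114 UMIs. With cells above the upper limits on genes and UMIs kept, that cluster had 182 CPM (169 to 196) on 725 UMIs, and a UMI in 16.4% of its thinned cells.

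With those cells kept, the other yak germ-like clusters had from 4.83 CPM, in cluster 9 with the meiotic gene *SYCP3*, to 39.2 CPM in cluster 1. The 48 germ-like cells of cattle-yak, also with *SYCP3*, had 1 *COL22A1* UMI (2.28 CPM, 0.0578 to 12.7). A further cattle-yak cluster of 235 cells led by *DMRT1* and *ELAVL2*, which met no rule for a name, had 14.9 CPM (11.9 to 18.5) on 84 UMIs, near the 17.7 CPM of yak cluster 21, which *DMRT1* also led. No cattle-yak cluster was named from haploid genes, so the cluster with the high level in yak had no counterpart to set beside it.

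*COL15A1*, the multiplexin chain of the basement membrane zone of muscle and capillaries, was highest in stromal-like cells. Endothelial-like cells came next in yak and PDGFRA+ACTA2+ cells in cattle-yak. The PDGFRA+ACTA2+ class had 201 CPM in yak and 223 CPM (198 to 251) in cattle-yak. *COL15A1* had 315 CPM (296 to 334) in stromal-like and 273 CPM (259 to 287) in endothelial-like cells of yak, and 364 CPM (351 to 378) and 146 CPM (134 to 158) in cattle-yak. *COL8A1*, a short chain collagen of vessel walls, had 40.7 CPM (30.4 to 53.4) and 31.2 CPM (17.1 to 52.4) in pericyte-like cells. Its partner *COL8A2* had 8.79 CPM in yak endothelial-like cells on 48 UMIs and stayed under 50 UMIs in the cattle-yak classes.

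Of the transmembrane collagens, *COL13A1*, known from cell adhesions and the neuromuscular junction, was highest in endothelial-like cells, at 11.2 CPM (8.55 to 14.3) in yak and 32.3 CPM (26.8 to 38.6) in cattle-yak. *COL25A1*, known from muscle innervation, was highest in muscle-like cells, at 12.4 CPM (9.12 to 16.4) and 8.92 CPM (6.37 to 12.1). *COL23A1* had 23 UMIs in yak stromal-like cells (6.86 CPM) and 9 in those of cattle-yak.

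The other members were rare. *COL2A1*, *COL9A1*, *COL9A2*, *COL9A3*, *COL10A1*, *COL11A1* and *COL11A2*, which are best known from cartilage, had between 1 and 77 UMIs each in either library over all cells. *COL17A1*, the hemidesmosome collagen of epithelia, had 2 and 1, *COL19A1* 46 and 24, and *COL26A1* 37 and 3. *COL6A5* had 40 and 125 and *COL6A6* 77 and 114, and neither reached 50 UMIs in the named classes of a library. Over all cells 9 members stayed under 50 UMIs in both libraries, and over the named classes 13 did. These 13 had too few UMIs for a leading class to be set. In cattle-yak pericyte-like cells *COL6A6* had 26.8 CPM (13.8 to 46.8) on 12 UMIs and *COL6A5* 22.3 CPM (10.7 to 41.0) on 10. Stromal-like cells of that library had 1.98 and 1.85 CPM. In yak pericyte-like cells *COL6A5* had 2.35 CPM on 3 UMIs, and no *COL6A6* UMI was counted.

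Pairs of chains of the same or a partner type were set beside each other as the ratio of their UMIs. A ratio depends on how well each gene was captured. It is therefore read only against the ratio of the same pair in another class of the same library. The reads of both libraries were mapped to the yak genome. Whether a pair was captured and mapped alike in both was not tested, so ratios of the libraries are set side by side only. *COL4A1* to *COL4A2* ran from 2.69 in muscle-like cells to 4.59 (3.73 to 5.68) in PDGFRA+ACTA2+ cells of yak and from 2.87 to 5.31 in the same classes of cattle-yak. The class with the highest and the class with the lowest ratio were thus the same in both libraries. In the RefSeq annotation of the yak assembly Bosgru_T2T1.0, *COL4A1* and *COL4A2*, *COL4A3* and *COL4A4*, *COL4A5* and *COL4A6*, *COL6A1* and *COL6A2*, and *COL3A1* and *COL5A2* are neighbouring genes. Of these 5 pairs, *COL4A5* and *COL4A6* had different leading classes in both libraries.

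*COL4A3* to *COL4A4* differed between the libraries in the classes where both genes were most abundant. The ratio was 1.24 (1.16 to 1.33) in yak and 0.661 (0.608 to 0.719) in cattle-yak PDGFRA+ACTA2+ cells, and 0.948 (0.851 to 1.05) and 0.436 (0.408 to 0.464) in stromal-like cells. In muscle-like cells the intervals met, at 0.564 (0.351 to 0.891) and 0.425 (0.320 to 0.558). In endothelial-like cells the ratio was 0.320 (0.231 to 0.436) and 0.408 (0.313 to 0.528). The cattle-yak ratio was lower in 3 of these 4 classes. Only in stromal-like and PDGFRA+ACTA2+ cells did the intervals of the libraries not meet. In cattle-yak muscle-like cells *COL4A3* and *COL4A4*, at 16.9 and 39.9 CPM, lay below the 24.3 and 47.7 CPM of T/NK-like cells. Without cluster 23 the T/NK-like levels were 7.16 and 14.3 CPM, and both genes lay above them.

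*COL4A5* to *COL4A6* was higher in cattle-yak in 3 of 3 classes, with intervals that met in all but muscle-like cells. It declined in the order stromal-like, PDGFRA+ACTA2+ and muscle-like in both libraries, from 3.09 (2.55 to 3.78) through 1.74 to 0.886 (0.763 to 1.03) in yak and from 4.00 (3.63 to 4.42) through 2.07 to 1.27 (1.13 to 1.42) in cattle-yak. *COL5A1* to *COL5A2* separated the endothelial classes, with 0.520 (0.379 to 0.707) and 0.556 (0.404 to 0.759) in endothelial-like but 4.46 (3.33 to 6.08) and 3.70 (2.72 to 5.11) in lymphatic endothelial-like cells. Stromal-like cells had 2.18 and 2.42. The *COL5A1* level of endothelial-like cells, 11.9 and 17.3 CPM, lay below the 12.8 and 39.8 CPM of T/NK-like cells. By this reference it was not told apart from background. Without cattle-yak cluster 23 the T/NK-like level was 25.4 CPM, still the higher. Without yak cluster 16 it was 10.1 CPM (7.98 to 12.6), just under the yak value. *COL5A2*, at 22.9 and 31.2 CPM in endothelial-like cells, lay above the 1.97 and 13.5 CPM of T/NK-like cells.

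*COL1A2* to *COL3A1* set no class apart in yak, outside muscle-like and endothelial-like cells. It was 2.00 in PDGFRA+ACTA2+, 2.22 in pericyte-like, 2.01 (1.60 to 2.53) in T/NK-like and 2.22 (1.75 to 2.83) in germ-like cells, beside 2.14 (2.04 to 2.24) in stromal-like cells. In muscle-like cells it was 1.60 (1.38 to 1.85) and in endothelial-like cells 4.36 (2.97 to 6.58). In cattle-yak T/NK-like cells it was 2.35 (1.98 to 2.80), beside 2.60 (2.53 to 2.68) in stromal-like cells. The yak germ-like level of *COL1A2* was 70.6 CPM (61.8 to 80.4), above the 28.8 CPM of T/NK-like cells. Free RNA as its source was not tested.

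**Figure D3:**
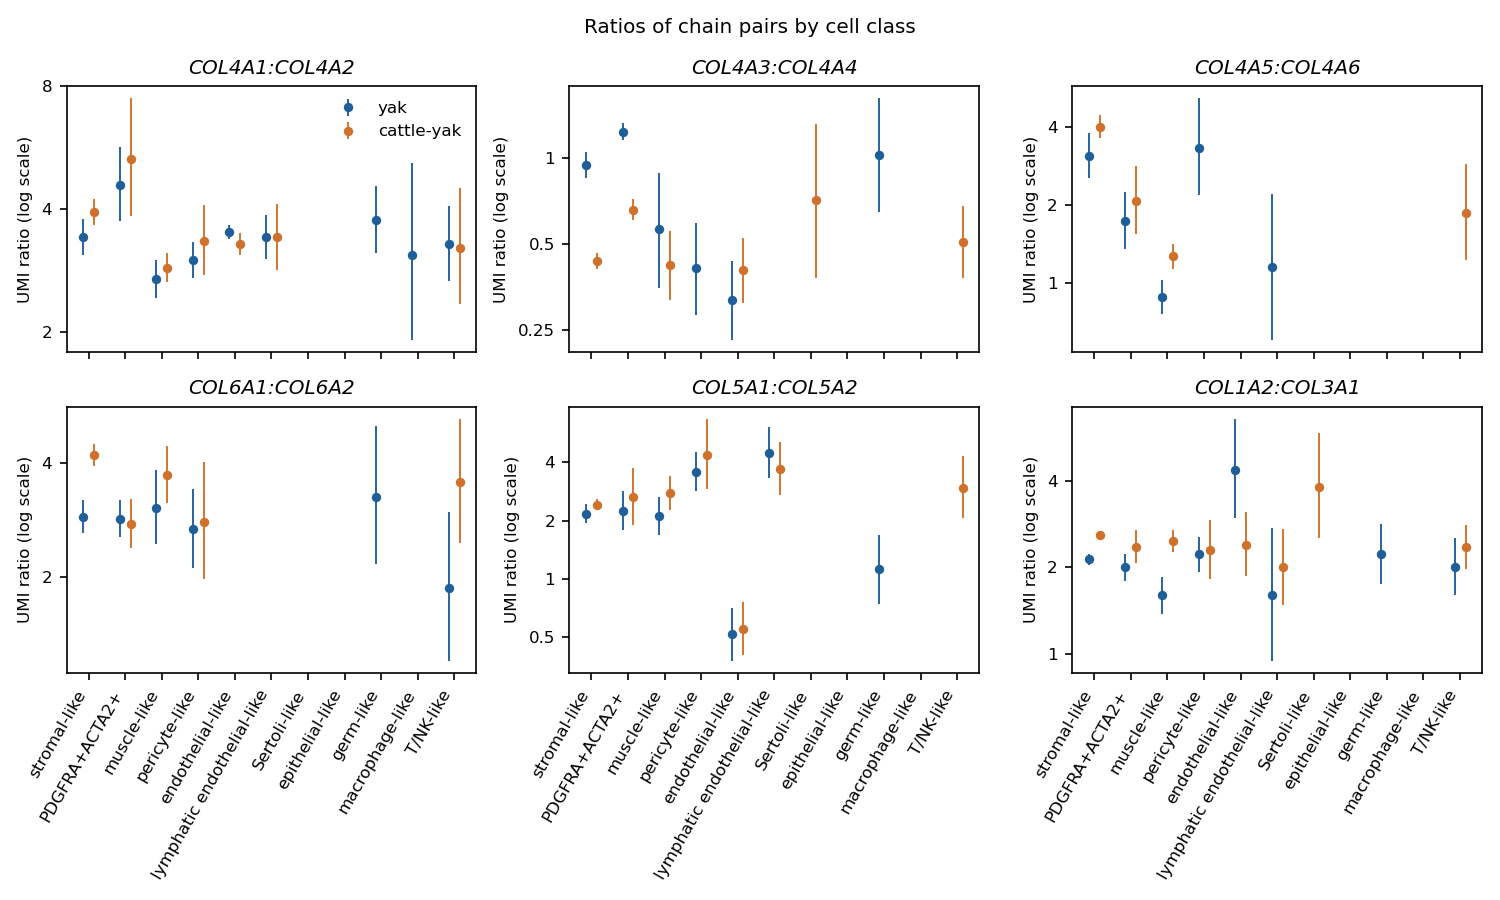
Ratio of the UMIs of 6 chain pairs in each class with at least 20 UMIs of each chain, on a log scale, for the yak (blue) and cattle-yak (orange) library, with lines for the 95% counting interval. The *COL4A3* to *COL4A4* points of the libraries lie apart in stromal-like and PDGFRA+ACTA2+ cells, at 0.948 against 0.436 and 1.24 against 0.661, and the *COL5A1* to *COL5A2* points of endothelial-like cells lie below 1.

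The libraries were then compared within each class that held at least 50 cells in both, for genes with at least 100 UMIs over both. The log2 ratio of cattle-yak to yak was taken after adding 1 CPM to each side, and a gene counted as different at 2-fold or more. The interval given with it is that of the ratio without the added CPM. The animal, the hybrid background, the dissociation and the sequencing run cannot be told apart with 1 library each. The median over all genes tested lay between -0.35 and -0.09 by class, and mitochondrial and ribosomal RNA took a larger share of the cattle-yak UMIs, for example 41.9% against 28.0% in stromal-like cells. When those transcripts were left out of the total, log2 ratios of all genes in a class moved up by 0.12 to 0.34.

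The summed collagen level was close in stromal-like cells, with a log2 ratio of 0.13 (0.10 to 0.15), and in pericyte-like cells, with 0.05 (-0.03 to 0.13). It was higher in cattle-yak in PDGFRA+ACTA2+ cells, at 0.28 (0.23 to 0.32), in muscle-like cells, at 0.66 (0.62 to 0.71), and in lymphatic endothelial-like cells, at 0.64 (0.55 to 0.73). Endothelial-like cells were the only class with a lower level in cattle-yak, at -0.71 (-0.74 to -0.67). Macrophage-like cells had a ratio of 0.68 (0.35 to 1.01), with no member reaching 100 UMIs. T/NK-like cells had 1.73, or 0.47 (0.34 to 0.61) without cattle-yak cluster 23, and 1.05 (0.91 to 1.20) without yak cluster 16 as well. With no cell removed for its doublet score, a shift toward cattle-yak was thus also present at the background level, and its size depended on these 2 clusters. The shift was nearly absent without the cells with the top Scrublet doublet scores, as given below for T/NK-like cells. Its presence therefore also depended on cells that may be doublets, and how well the yak scores mark doublets was not tested.

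In stromal-like cells, 2 of the 20 members tested were at least 2-fold higher in cattle-yak, beside 1.46% of the 6779 genes tested, and 2 were lower, beside 6.34%. The median of the members was 0.20, against -0.25 over all genes. *COL4A5* was higher, at a log2 ratio of 1.06 (0.92 to 1.22), and so was *COL21A1*, at 1.05 (0.64 to 1.59). *COL28A1* was lower, at -1.20 (-1.29 to -1.11), or -0.74 under the alternative that moved it most, and *COL12A1* was lower, from 27.7 to 4.62 CPM at -2.35 (-3.19 to -2.01), the latter a level above the 1.43 CPM of T/NK-like cells without cluster 23. The members with the most UMIs over both libraries, *COL1A2*, *COL3A1* and *COL4A1*, had ratios of 0.30 (0.26 to 0.34), 0.01 (-0.05 to 0.08) and -0.16 (-0.25 to -0.08).

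The cattle-yak stromal-like class was made of clusters 0, 1, 6, 9 and 17, and the yak class of cluster 12 alone. *COL28A1* spanned from 82.6 CPM (66.8 to 101) in cluster 0 to 552 CPM (516 to 590.0) in cluster 17, and the interval of cluster 17 met that of the yak class. *COL4A5* spanned from 143 CPM (122 to 167) in cluster 0 to 465 CPM (429 to 504) in cluster 6, and clusters 0 and 9 met the yak interval. *COL12A1* was lower than the yak level in all 5 clusters, at 1.56 to 14.9 CPM, with an interval that met that of yak in cluster 0 only. *COL21A1* had 18.1 to 44.7 CPM, and clusters 0 and 1 met the yak interval. The alpha 3 and alpha 4 chains varied among the same clusters, *COL4A3* from 55.5 to 494 CPM and *COL4A4* from 192 to 913 CPM, with both highest in cluster 17. For *COL4A4*, clusters 0 and 1 met the yak interval of 196 to 227 CPM. For *COL4A3*, clusters 0, 1, 6 and 9 lay below the yak interval of 185 to 216 CPM.

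**Figure D4:**
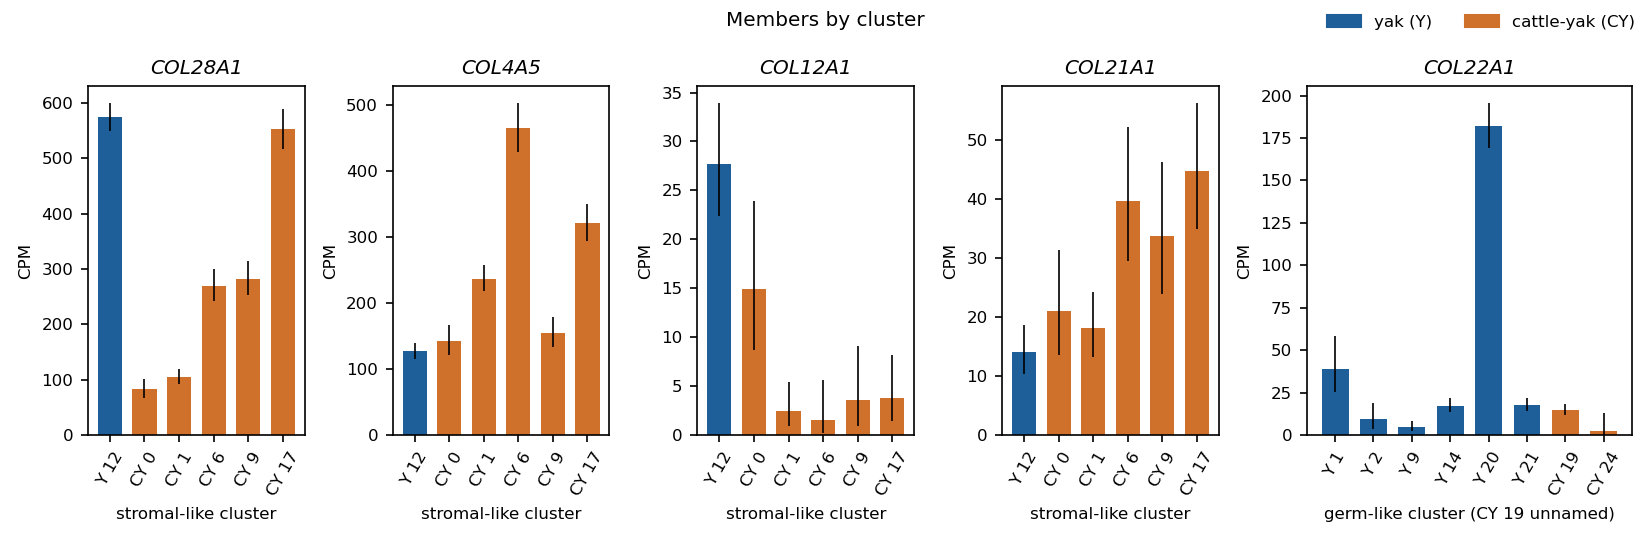
CPM of 4 members in the stromal-like clusters and of *COL22A1* in the germ-like clusters (cells above the upper limits kept), for the yak (blue) and cattle-yak (orange) library, with lines for the 95% counting interval; every panel has its own axis. *COL28A1* in cattle-yak cluster 17 reached the yak level, *COL12A1* lay below it in each cattle-yak cluster, and *COL22A1* stood at 182 CPM in yak cluster 20.

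In the PDGFRA+ACTA2+ class, 0 of 16 members were at least 2-fold higher, beside 1.02% of genes, and 1 was lower, beside 5.09%. That member was again *COL28A1*, from 192 to 71.8 CPM at a log2 ratio of -1.41 (-1.76 to -1.09). The median of the members was 0.16, against -0.28 over all genes. Of the members with the most UMIs over both libraries, *COL4A3* had a ratio of 0.03 (-0.09 to 0.15), *COL4A4* of 0.94, *COL6A1* of 0.16 (0.02 to 0.30) and *COL1A2* of 0.59 (0.45 to 0.73).

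Muscle-like cells had 3 of 16 members at least 2-fold higher, beside 1.74% of genes, and 0 lower, beside 2.03%. *COL1A2* had 125 CPM (114 to 136) in yak and 395 CPM (377 to 414) in cattle-yak, a log2 ratio of 1.66 (1.52 to 1.81), and both cattle-yak clusters of the class, at 380 and 406 CPM, lay above the yak cluster. *COL3A1* had 78.0 and 160.3 CPM, at 1.03 (0.84 to 1.24), and *COL4A4* 14.2 and 39.9 CPM, at 1.43 (1.05 to 1.96). Without the top 10% of doublet scores from Scrublet these ratios were 1.13, 0.69 and -0.025, so that of *COL4A4* was not kept. The cattle-yak *COL4A4* level also lay below the 47.7 CPM of T/NK-like cells, and above them only without cluster 23, at 14.3 CPM. The median of the members was 0.57, against -0.10 over all genes. The cluster levels of *COL3A1* were uneven, at 249.8 CPM in cluster 13 and 97.9 CPM in cluster 16. *COL4A1*, the member with the most UMIs, had a ratio of 0.61 (0.52 to 0.71) and *COL4A2* of 0.52 (0.36 to 0.69). After thinning, 12.4% of yak and 27.3% of cattle-yak muscle-like cells had a *COL1A2* UMI, while T/NK-like cells had 28.8 CPM in yak and 57.3 CPM in cattle-yak without cluster 23.

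Pericyte-like cells had 1 of 12 members higher, beside 1.46% of genes, and 0 lower, beside 5.85%. This was *COL4A5*, with 77.5 CPM (63.0 to 94.3) in yak and 163 CPM (128 to 205) in cattle-yak, at a log2 ratio of 1.06 (0.62 to 1.52). Beside pericyte-like and stromal-like cells, *COL4A5* had a ratio above 0 in PDGFRA+ACTA2+ cells, at 0.60 (0.28 to 0.93), and in muscle-like cells, at 0.87 (0.69 to 1.07). By UMIs over both libraries *COL4A1*, *COL1A2* and *COL4A2* led, and they had ratios of -0.22 (-0.37 to -0.07), 0.07 (-0.15 to 0.29) and -0.37 (-0.66 to -0.10). The median of the members was 0.10, against -0.16 over all genes.

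Endothelial-like cells had 4 of 13 members higher, beside 1.86% of genes, and 1 lower, beside 2.65%, with a median of 0.43 against -0.09 over all genes. The members with the most UMIs were nevertheless lower in cattle-yak. *COL4A1* had a ratio of -0.88 (-0.93 to -0.83), *COL4A2* of -0.78 (-0.88 to -0.69) and *COL15A1* of -0.90 (-1.05 to -0.76), all under 2-fold. *COL12A1* was lower by 2-fold or more, at -1.08 (-1.31 to -0.87).

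The same was seen within the endothelial-like clusters. In the cluster of each library led by *CA4*, *COL4A1* had 2701 CPM (2651 to 2751) in yak and 1439 CPM (1396 to 1484) in cattle-yak. In the cluster led by *BMX* it had 625 CPM (582 to 669) and 411 CPM (370 to 455). *COL15A1* had 351 and 186 CPM in the *CA4* clusters, while its intervals in the *BMX* clusters, 15.5 to 32.9 and 9.47 to 27.9 CPM, met. *COL12A1* had 149 and 74.4 CPM in the *CA4* clusters and 56.0 and 11.3 CPM in the *BMX* clusters.

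Of the members higher in cattle-yak endothelial-like cells, *COL13A1* had a log2 ratio of 1.45 (1.08 to 2.00), with 12.3 and 36.7 CPM in the *CA4* clusters. *COL4A3* had 9.89 and 22.4 CPM, at 1.10 (0.67 to 1.70). *COL1A2*, with 26.4 and 57.6 CPM, had 1.10 (0.82 to 1.44), and *COL3A1*, with 6.04 and 24.0 CPM, had 1.83 (1.40 to 2.61). The T/NK-like levels without cattle-yak cluster 23 were 28.8 and 57.3 CPM for *COL1A2* and 14.3 and 24.7 CPM for *COL3A1*, and without yak cluster 16 those of yak were 15.4 CPM (12.7 to 18.4) and 9.06 CPM. *COL3A1* was thus below the T/NK-like level in either case and was not told apart from background. *COL1A2* in yak lay above that level once cluster 16 was left out. Without the cells in the top 10% of Scrublet doublet scores the ratio of *COL1A2* was -0.12 and that of *COL3A1* 0.64. The cattle-yak level of *COL4A3* was above the 7.16 CPM of T/NK-like cells without cluster 23 and below their 24.3 CPM with it.

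Lymphatic endothelial-like cells had 4 of 7 members higher, beside 1.31% of genes, and 0 lower, beside 7.32%, with a median of 1.12 against -0.35 over all genes. *COL1A2* had 11.9 CPM (8.48 to 16.2) in yak and 111 CPM (93.2 to 132) in cattle-yak, at a log2 ratio of 3.12 (2.71 to 3.78). *COL5A1* had 74.1 and 163 CPM, at 1.12 (0.86 to 1.41), *COL5A2* 16.6 and 44.0 CPM, at 1.35 (0.83 to 1.97), and *COL15A1* 24.9 and 68.9 CPM, at 1.43 (1.01 to 1.92). The cattle-yak levels of these 4 genes lay above those of T/NK-like cells without cluster 23, at 57.3, 25.4, 6.44 and 12.2 CPM in the same order. With that cluster the *COL1A2* level of T/NK-like cells, 145 CPM, was the higher, and the yak *COL1A2* level of 11.9 CPM was below that of T/NK-like cells, at 28.8 CPM, or 15.4 CPM without cluster 16. *COL4A1* and *COL4A2*, which had more UMIs there, had ratios of 0.27 (0.12 to 0.43) and 0.27 (-0.01 to 0.56). *COL5A3*, whose own level was higher in this class than in any other, had -0.44 (-0.71 to -0.19).

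T/NK-like cells had 6 of 8 members higher, beside 1.84% of genes, and 0 lower, beside 5.2%. Without cattle-yak cluster 23 this was 1 of 7, *COL6A1* at a log2 ratio of 1.11 with 7.41 CPM in yak and 17.2 CPM in cattle-yak, beside 0.826% of genes, and 0 lower, beside 5.44%. The median of the members was then 0.75, against -0.30 over all genes, and it was 1.88 with the cluster. When yak cluster 16 was left out as well, 3 of 4 members were higher, beside 1.43% of genes, and 0 lower, beside 5.34%. These were *COL1A2* at 1.83, *COL3A1* at 1.35 and *COL5A1* at 1.25. *COL4A4* had 2.22 CPM in yak and 47.7 CPM in cattle-yak, at 3.92 (3.71 to 5.22), or 14.3 CPM without the cluster. *COL1A2* had 28.8 and 145 CPM, at 2.30 (2.11 to 2.57), *COL3A1* 14.3 and 61.8 CPM, at 2.04 (1.77 to 2.46), and *COL6A1* 44.4 CPM in cattle-yak, at 2.43 (2.13 to 3.05). *COL15A1* and *COL5A1* had 1.73 (1.38 to 2.31) and 1.56 (1.24 to 2.02). Without the top 10% of Scrublet scores the ratio of *COL15A1* was -0.12 and that of the summed members 0.065.

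**Figure D5:**
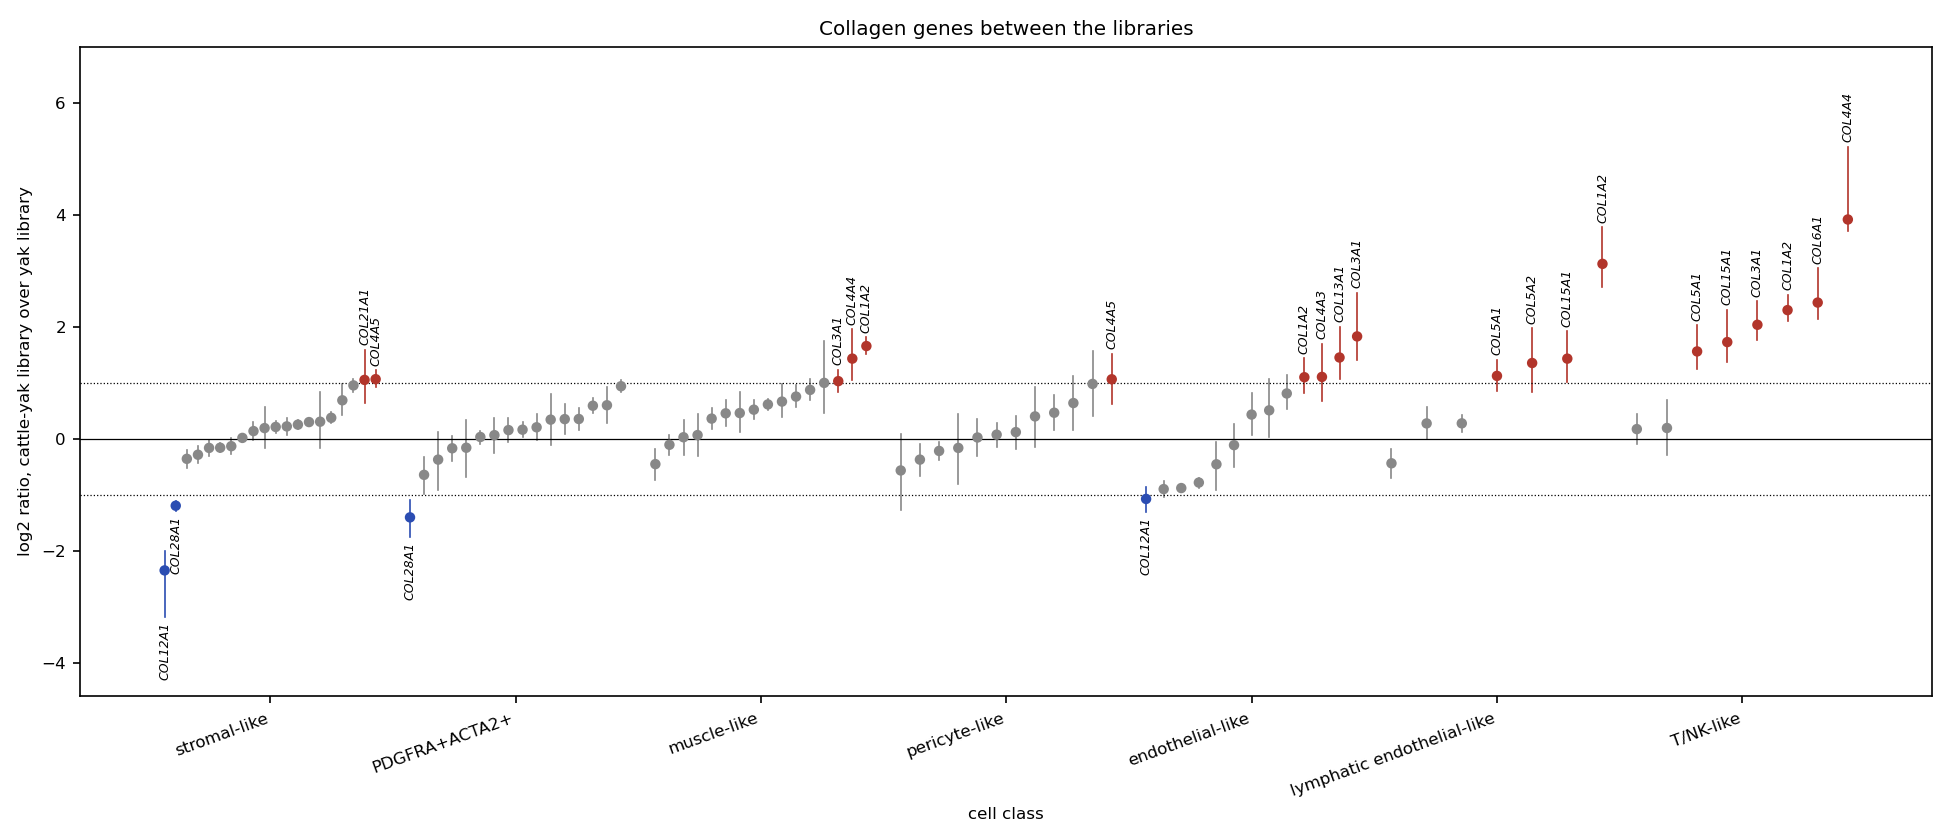
Log2 ratio of the cattle-yak to the yak library for each member with at least 100 UMIs in a class, sorted within the class, with lines for the 95% counting interval and dotted lines at 2-fold; members at least 2-fold higher are red and lower ones blue. The named blue points are *COL12A1* and *COL28A1* in stromal-like, *COL28A1* in PDGFRA+ACTA2+ and *COL12A1* in endothelial-like cells, and the highest T/NK-like points are drawn with cattle-yak cluster 23 kept.

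Enzymes and chaperones modify and fold collagen chains in the endoplasmic reticulum. Of this list 16 of 19 names were found, and 8 of the 15 with at least 50 UMIs in yak and 9 of 15 in cattle-yak were highest in a mesenchymal class, beside 17.9% and 23.8% of all genes. *FKBP10*, a prolyl isomerase and collagen chaperone, was highest in pericyte-like cells, at 67.3 and 103 CPM. *P3H2*, a prolyl 3-hydroxylase known to act on type IV collagen, was highest in muscle-like cells, at 55.1 and 44.6 CPM, against 2.68 and 0.792 CPM in stromal-like cells. *COLGALT2*, a collagen galactosyltransferase, had 24.7 and 18.9 CPM in muscle-like cells, and *P4HA3*, a subunit of prolyl 4-hydroxylase, 8.03 and 5.64 CPM in PDGFRA+ACTA2+ cells.

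Of the genes that cleave propeptides and cross-link fibrils, all 13 were found, and 7 of 10 in yak and 7 of 9 in cattle-yak were highest in a mesenchymal class, beside the same 17.9% and 23.8% of all genes. *PCOLCE*, the enhancer of procollagen C-proteinase, had 522 CPM in yak and 402 CPM in cattle-yak stromal-like cells. *LOX*, the lysyl oxidase that starts cross-linking, had 74.8 and 48.3 CPM, and *ADAMTS2*, an N-propeptidase, 25.6 and 24.7 CPM. Of the receptors, 7 of 10 were found, and 3 of 4 in yak and 2 of 4 in cattle-yak led in a mesenchymal class, beside those same shares. *ITGA1*, the alpha chain of an integrin that binds type IV and type I collagen, was highest in pericyte-like cells, at 543 and 248 CPM, and *ITGA2*, that of a second collagen integrin, in endothelial-like cells, at 72.3 and 43.2 CPM.

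Between the libraries, 0 of 10 folding genes, 1 of 6 cleavage and cross-linking genes and 2 of 3 receptors tested in stromal-like cells differed by 2-fold or more, each of them lower in cattle-yak, beside 6.34% of all genes lower and 1.46% higher in this class. These were *PCOLCE2*, a relative of *PCOLCE*, from 35.2 to 4.36 CPM at a log2 ratio of -2.76 (-3.62 to -2.45), *ITGA1*, from 100.2 to 35.1 CPM at -1.49 (-1.75 to -1.28), and *MRC2*, a receptor for collagen uptake, from 17.3 to 7.66 CPM at -1.08 (-1.73 to -0.62). *ITGA1* was also lower in PDGFRA+ACTA2+ cells, from 61.7 to 23.4 CPM at -1.36, and in pericyte-like cells, at -1.13. T/NK-like cells had 73.7 and 50.6 CPM of *ITGA1*. The PDGFRA+ACTA2+ levels of both libraries and the stromal-like level of cattle-yak lay below these. Whether T/NK-like cells make *ITGA1* themselves was not tested, so their level was not taken as background for this gene. *SERPINH1*, the collagen chaperone HSP47, was the only one of 10 folding genes tested in muscle-like cells that was at least 2-fold higher in cattle-yak, from 10.6 to 25.2 CPM at 1.18, beside 1.74% of all genes. The median of these 10 genes was -0.085 there. In lymphatic endothelial-like cells *P4HA2*, a prolyl 4-hydroxylase subunit, was lower, from 193 to 72.2 CPM at -1.41, and so was *TLL1*, a procollagen C-proteinase, from 69.1 to 25.7 CPM at -1.39. In endothelial-like cells *PCOLCE* had 7.33 and 22.4 CPM, at 1.49, below the T/NK-like level of 32.8 and 60.5 CPM.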

How the data were processed

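Single-cell RNA of testis tissue was counted per gene and cell barcode in 1 yak and 1 cattle-yak library. The authors deposited whole-number UMI counts without normalization, per the file headers made by Cell Ranger 5.0.0. The submitters' processing notes name version 2.1.1. The reads were mapped to the yak genome, and the barcodes are those Cell Ranger called, before further limits. The libraries hold 11991 and 8930 cells with medians of 2533 and 3155 UMIs. Nothing in these counts separates RNA made by a cell from RNA taken up from the droplet.

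Cells with a mitochondrial share under 30% (11114 and 7620) were clustered per library, without the collagen and pathway genes, in scanpy 1.11.5 (anndata 0.12.19, igraph 0.11.9, Python 3.11.15, numpy 2.4.6, scipy 1.17.1, pandas 2.3.3, scikit-learn 1.9.0; figures in matplotlib 3.10.9). The settings were the log of counts per 10000 plus 1, 2000 variable genes, 30 components, 15 neighbours, Leiden resolution 1 and seed 0, which gave 23 and 26 clusters. A marker was enriched at a log2 ratio of at least 1 and a UMI in 10% of cells, and a name needed 3 enriched markers. How clusters were merged into classes was set after the marker counts had been seen. Clusters with markers of several classes (541 and 575 cells) and unnamed ones (851 and 339 cells) entered no class. These counts include cells above the upper limits on genes and UMIs. Values use cells within 2 SD of the mean of genes and UMIs (10324 and 7092), except for Sertoli-like cells and classes with under 50 such cells.

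Counts of a class were summed and scaled to CPM of all its counts. Intervals are exact Poisson (levels), exact conditional (ratios) and exact binomial (shares after thinning to 1000 UMIs), at 95%. Cells below the thinning depth were left out of those shares. PCR and capture are not covered by them. Minimums were 50 UMIs for a leading class, 100 for a comparison of libraries and 20 for a chain ratio, and 1 CPM was added for log2 ratios. The statistics were tested on simulated data. Scrublet called 0 yak cells, taken as a failed caller, and 251 cattle-yak cells (2.81%), and no cell was removed for its calls. An alternative removed the top 10% of its scores in each library, and how well the yak scores mark doublets was not tested. RefSeq names (assembly Bosgru_T2T1.0) matched 37 of 38 members and gave which genes neighbour each other, and no sequence was used here. Alternatives were other limits on cells, Leiden resolutions, components, minimums, added CPM, totals and thinning depths.

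The members and gene lists were chosen with earlier results of these data known. Values are given for members with at least 50 UMIs in a class, for those at least 2-fold different, for the 3 most abundant in a class, and for up to 4 genes per pathway list by the size of their ratio.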

Additional observations from a re-analysis of the deposited data

Results flagged for a closer look

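*COL15A1* was 2-fold or more higher in the cattle-yak library in lymphatic endothelial-like cells, at a log2 ratio of 1.43, and lower in endothelial-like cells, at -0.90. *COL4A3* was higher in cattle-yak endothelial-like cells, at 1.10, and slightly lower in stromal-like cells, at -0.16. Each pair of ratios differs in sign between 2 classes, and with 1 library per group the difference was not tested.

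Cells outside the named classes also carried collagen, in both libraries. In yak, the unnamed cluster 3 of 732 cells had a summed level of 2812 CPM, with 1176 CPM of *COL4A1*. Yak cluster 15, which had markers of several classes, had 4038 CPM in 247 cells within the limits, with 2299 CPM of *COL4A1*. A cattle-yak cluster with both endothelial and pericyte markers, cluster 12, had 1473 CPM of *COL4A1* and 416 CPM of *COL4A2*. A Schwann-like cattle-yak cluster of 20 cells, cluster 25, had a summed level of 7147 CPM, above that of stromal-like cells, with 1835 CPM of *COL4A1* on 85 UMIs, 1252 CPM of *COL3A1* on 58 and 691 CPM of *COL5A1* on 32. All these levels were above those of T/NK-like cells.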

How the results depend on the processing

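No paired analysis was possible because each group has 1 library. Over the alternatives tried, 14 to 18 members in yak and 17 to 21 in cattle-yak were highest in a mesenchymal class. The number of members compared also changed with the alternative, and the share over all genes was not counted under them. The single leading class of a gene was less steady: it was kept by 18 of 25 yak members at resolution 0.5 and by 17 of 21 cattle-yak members with a mitochondrial share under 20%. Of the 24 pairs of member and class at least 2-fold apart, 20 higher and 4 lower in cattle-yak, 21 kept their direction under every alternative and 7 stayed at 2-fold (*COL12A1* in stromal-like, *COL28A1* in PDGFRA+ACTA2+, *COL1A2* in muscle-like, *COL1A2*, *COL5A2* and *COL15A1* in lymphatic endothelial-like and *COL4A4* in T/NK-like cells). Leaving out cattle-yak cluster 23, alone or with yak cluster 16, was chosen after seeing the data. It changes T/NK-like cells only, and a minimum of 20 UMIs changes no ratio. These alternatives therefore could not move the pairs of other classes. Ratios under the minimum for a comparison of libraries were also counted. Without cluster 23, *COL4A4* in T/NK-like cells rested on 18 yak and 40 cattle-yak UMIs, and without both clusters on 13 and 40. Both fall under that minimum. The 3 pairs that reversed did so without the cells in the top 10% of Scrublet scores. They were *COL4A4* in muscle-like cells (-0.025), *COL1A2* in endothelial-like cells (-0.12) and *COL15A1* in T/NK-like cells (-0.12). Of the pairs that still met the minimum, 5 were then at least 2-fold higher. A minimum of 20 UMIs gave 45 higher and 12 lower pairs, since more genes are tested. Lower pairs numbered 2 with CPM taken without mitochondrial and rRNA features and 2 with ratios centred on the median gene, 7 at Leiden resolution 2 and 8 without upper limits. Shares over all genes were not counted under these alternatives, so these counts of pairs are not read as a result about the members. The stromal-like sum of 6869 CPM in cattle-yak became 11815 without mitochondrial and rRNA features in the total, 6754 with cells weighted equally and 7226 with a mitochondrial share under 20%. The yak sum of 6291 CPM became 8738, 6205 and, in the same class, 6477 with 50 components, 5269 at resolution 0.5, 6419 at resolution 2 and 6574 without the top Scrublet scores. The ratio of *COL4A3* to *COL4A4* in stromal-like cells became 0.465 in cattle-yak (mitochondrial share under 20%) and 1.14 in yak (resolution 0.5, where the PDGFRA+ACTA2+ cells joined this class). The share of stromal-like cells with *COL1A2* was 92.0% and 89.7% without thinning, 56.7% and 48.8% at 500 UMIs, in cattle-yak and yak, and 54.0% in yak at resolution 0.5. Apart from those named with their construction, the cause was not tested. No value was given for PDGFRA+ACTA2+ cells of yak at resolution 0.5. The number of cells limited the germ-like class of cattle-yak (48 cells) and the Sertoli-like class of yak (35 cells).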
